A study of Mus musculus with 56 samples.

Results

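The R-loop processing genes followed here encode proteins that remove or prevent R-loops and are Rnaseh1, Rnaseh2a, Rnaseh2b, Rnaseh2c, Aqr, Fancm, Ddx23, Ddx5 and Top1. They are 9 of the 21900 protein-coding genes of the RefSeq table used. They were chosen by name, with the authors' lists of changed H2A.Z peaks already known, so whether their peaks are in those lists is given as a description with no test. Peaks of the deposited H2A.Z set were taken at each gene, together with every row of the lists that the authors assigned to one of the 9.

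The data are CUT&Tag profiles, in which an antibody directs a transposase to chromatin so that the tagged fragments mark where a protein lies. The cells were mouse embryonic stem cells of the line RHKI(E14Tg2a), and the genotype of all libraries, treated and untreated, is given as HA-Rnaseh1 knock-in. The treated H2A.Z group had 4 libraries, made after 48 hours with doxycycline at 500 ng/ml, and the control group had 4. Both were kept in 2i/LIF medium with 1 µM PD0325901, a MEK inhibitor, 3 µM CHIR-99021, a GSK3 inhibitor, and 2% FBS. The labels do not say where in the genome the HA-Rnaseh1 knock-in lies, whether the line is 1 clone, or whether replicates were separate cultures. The ZX-1 cells named in the design are not analysed here, so an effect of doxycycline itself and one of Rnaseh1 cannot be told apart. Of the 56 libraries, the 48 for other targets are not analysed here.

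The H2A.Z files hold 61420 peaks, of which 9077 are in the authors' list of lower peaks and 318 in that of higher peaks. Lower and higher are read as doxycycline against control from the names of the lists. A peak in neither list had no change that the authors called, which does not show that it did not change. No file gives a level, fold change or p-value per peak or library, so neither sequencing depth nor replicate error can be given. The libraries are bulk, so a lower peak with fewer cells carrying H2A.Z and one with less H2A.Z per cell cannot be told apart. The stem cell label could not be checked, because H2A.Z peaks are no measure of expression. Of 8 pluripotency markers 1 had a peak within 1 kb of a gene end, and it was not lower. Of 8 fibroblast markers 5 had one and all 5 were lower. Among all protein-coding genes 49.5% had such a peak, and 31.5% of those had a lower one. The part of other cell types in the results below was not tested.

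An R-loop forms when nascent RNA pairs again with its DNA template behind the polymerase and leaves the other DNA strand single. Nucleases of the RNase H type cut the RNA in the hybrid, helicases unwind it, and topoisomerase I relieves the negative supercoiling that favours it. H2A.Z is a variant of histone H2A that is placed at promoters and enhancers by remodelling complexes.

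H2A.Z was lower at or in 3 of the 9 genes and at distal peaks assigned to 2 others. The 3 were Rnaseh2a, which encodes the catalytic subunit of RNase H2, Fancm, which encodes a DNA translocase of the Fanconi anaemia pathway, and Ddx23, which encodes a DEAD-box helicase of the spliceosome. The distal lower peaks were those that the authors assigned to Rnaseh2b, an RNase H2 subunit gene, and Top1, the gene of topoisomerase I. The labels do not say whether the induced HA-tagged copy of Rnaseh1 lies at the gene's own locus. The peak at that locus was in neither list. So was the broad peak at Aqr, which encodes the intron-binding helicase aquarius. Rnaseh2c, the third RNase H2 subunit gene, and Ddx5, a DEAD-box helicase gene, had no peak at or in the gene. No member had a higher peak, a class that made up 0.518% of all peaks. The counts of genes with a lower peak given here join different rules. No share over all protein-coding genes was computed for them, and counts by single rules follow with their shares.

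Of the 9 genes, 4 had a peak centred within 1 kb of either end, against 49.5% of all protein-coding genes. Of these 4, 2 had a lower one. Among the 10845 protein-coding genes with such a peak the share with a lower one was 31.5%. Of 7 peaks centred in the 9 genes or within 1 kb of them, 3 were lower, against 21.9% of the 29545 peaks placed likewise around all protein-coding genes and 14.8% of the whole set. By the authors' assignment to the nearest TSS, 4 of the 9 had a lower peak, against 26.8% of the 21900 protein-coding genes. These are counts of a few genes chosen with the lists known, and nothing is read from their distance to the background.

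**Figure D1:**
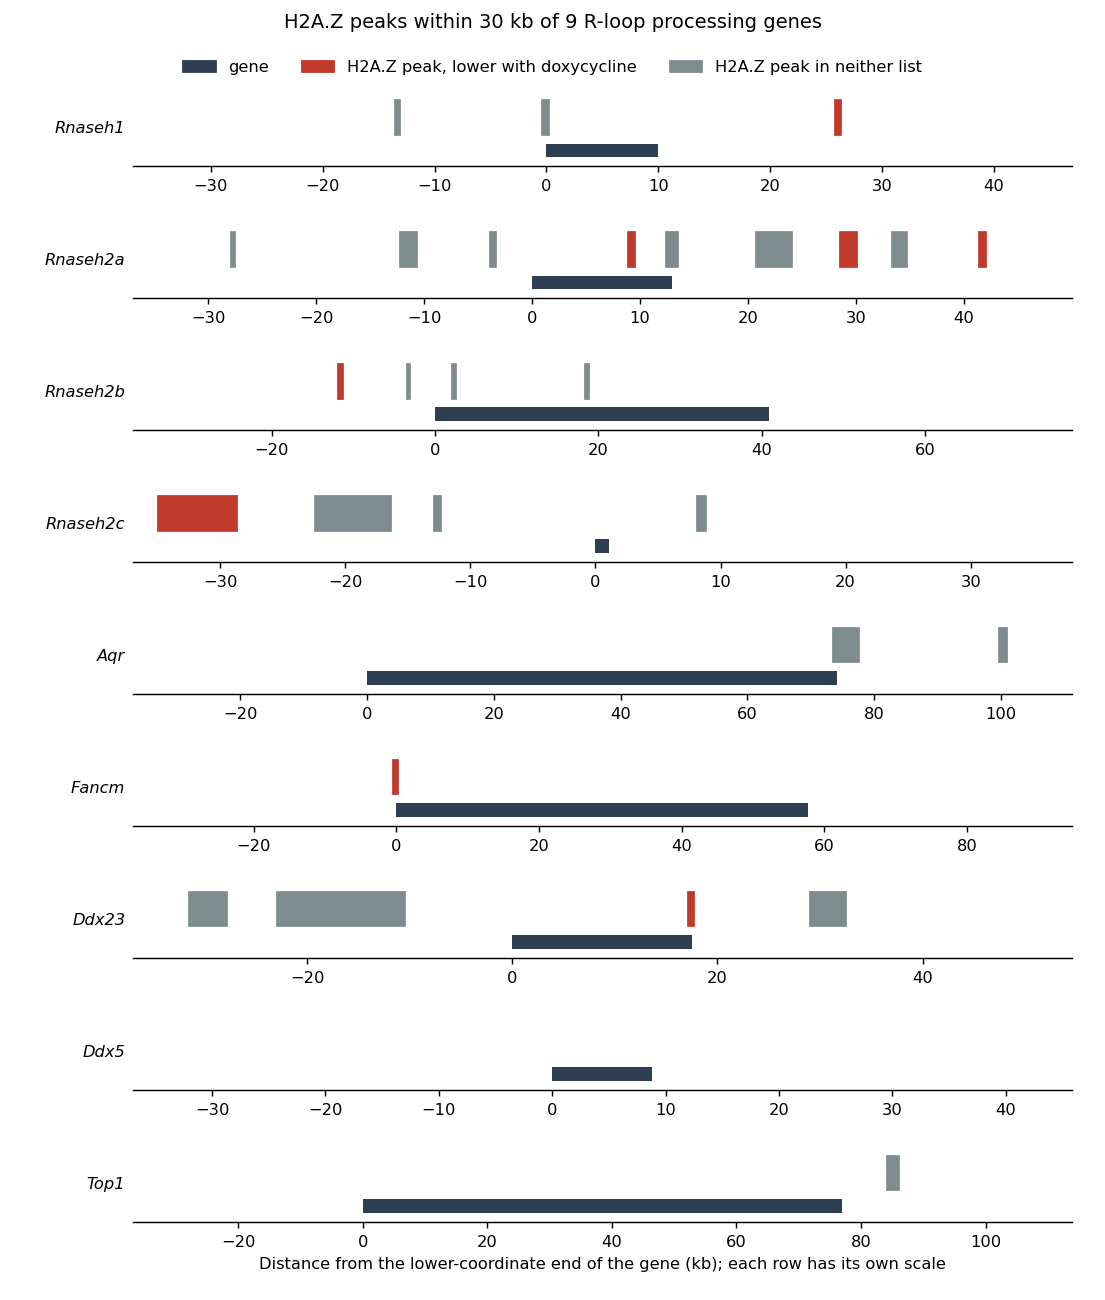
Positions of H2A.Z peaks (upper boxes, red if lower with doxycycline, grey if in neither list) and of the 9 genes (dark bars), as the distance in kb from the lower-coordinate end of each gene; each row has its own scale. Red boxes touch Rnaseh2a, Fancm and Ddx23, and Ddx5 has no peak within 30 kb.

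Promoter windows from RefSeq (GRCm38.p6) were listed for 6 of the 9 genes, and 3 are printed. That of Rnaseh2a lies partly under its lower peak, that of Aqr under the broad peak and that of Top1 under no peak. Each printed stretch runs 5′ to 3′ over the 250 bases before the listed start, on the strand of the gene. Capitals mark the motifs searched. The stretches are chr8:84966077-84966326 on the minus strand for Rnaseh2a, chr2:114175340-114175589 on the minus strand for Aqr, and chr2:160645647-160645896 on the plus strand for Top1.
Rnaseh2a: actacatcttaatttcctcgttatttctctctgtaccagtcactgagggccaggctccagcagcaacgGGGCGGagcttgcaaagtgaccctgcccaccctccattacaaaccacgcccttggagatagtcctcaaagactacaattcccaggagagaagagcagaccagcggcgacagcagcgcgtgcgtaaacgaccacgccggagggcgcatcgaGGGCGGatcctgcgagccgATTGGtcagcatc
Aqr: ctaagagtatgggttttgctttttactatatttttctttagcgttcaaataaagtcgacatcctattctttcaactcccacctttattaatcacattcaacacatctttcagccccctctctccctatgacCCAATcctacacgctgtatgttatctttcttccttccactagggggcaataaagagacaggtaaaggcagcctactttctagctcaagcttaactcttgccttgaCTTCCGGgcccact
Top1: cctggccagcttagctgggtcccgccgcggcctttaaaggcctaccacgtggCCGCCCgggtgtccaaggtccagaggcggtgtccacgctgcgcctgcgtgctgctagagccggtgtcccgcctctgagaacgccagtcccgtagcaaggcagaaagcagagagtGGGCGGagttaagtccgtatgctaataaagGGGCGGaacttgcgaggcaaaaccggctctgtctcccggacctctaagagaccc

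The Rnaseh2a stretch has 83 of its 250 bases in the lower peak, all at its 3′ end, next to the start. The Aqr stretch lies wholly in a peak of neither list, and the nearest peak to the Top1 window was 61769 base pairs away. The motifs searched, on both strands, were the Sp1 motif GGGCGG, the CCAAT box CCAAT, the ETS motif CCGGAAG, the TATA box TATAAA, the E2F motif TTCCCGC, the NRF1 motif GCATGCG and the YY1 motif GATGGCG. Rnaseh2a had a Sp1 match beginning 182 and another 32 bases before the start, and a CCAAT box 13 bases before it. Top1 had Sp1 matches at 198, 84 and 54 bases before its start. Aqr had a CCAAT box at 119 and an ETS match at 14 bases before its start, and no Sp1 match. No 2 of these matches overlapped. Of all 32851 promoter windows of 300 bases, 35.7% hold the Sp1 motif, 37.4% the CCAAT box and 8.86% the ETS motif. Of the 8 windows of the 6 genes, which include 3 for Ddx5, 4 hold the Sp1 motif, 4 the CCAAT box and 2 the ETS motif. The TATA box, at 13.6% of all windows, was in 1 window of Ddx5. The E2F and NRF1 motifs, at 4.60% and 3.58%, were together in the Fancm window, and the YY1 motif, at 3.49%, was in none of the 8.

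Base composition differed among the 6 genes. GC skew, the excess of G over C on the coding strand divided by their sum, is known to be positive just downstream of the start in human CpG island promoters that form R-loops. The windows run from 250 bases before the start to 50 after it. They lie mostly upstream, so their skew does not measure that downstream region. In the windows of Ddx5 the skew was 0.161, 0.072 and 0.173, and the last is higher than in 86.5% of all windows. In Aqr it was -0.241, higher than in 4.37% of windows, and GC content was 45.7%, against a median of 52.7% over all windows. Fancm and Rnaseh2a also had more C than G, with skews of -0.126 and -0.063, while Top1 at -0.031 and Rnaseh2c at 0.020 were close to balance. GC content was 64.7 to 68.3% in Ddx5, 64.0% in Top1, 58.3% in Rnaseh2a, 58.0% in Fancm and 49.7% in Rnaseh2c. The observed-to-expected ratio of CpG was 1.05 in Fancm, 0.997, 0.833 and 0.870 in the windows of Ddx5, 0.945 in Top1, 0.905 in Rnaseh2a, 0.611 in Aqr and 0.487 in Rnaseh2c, with an overall median of 0.384.

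**Figure D2:**
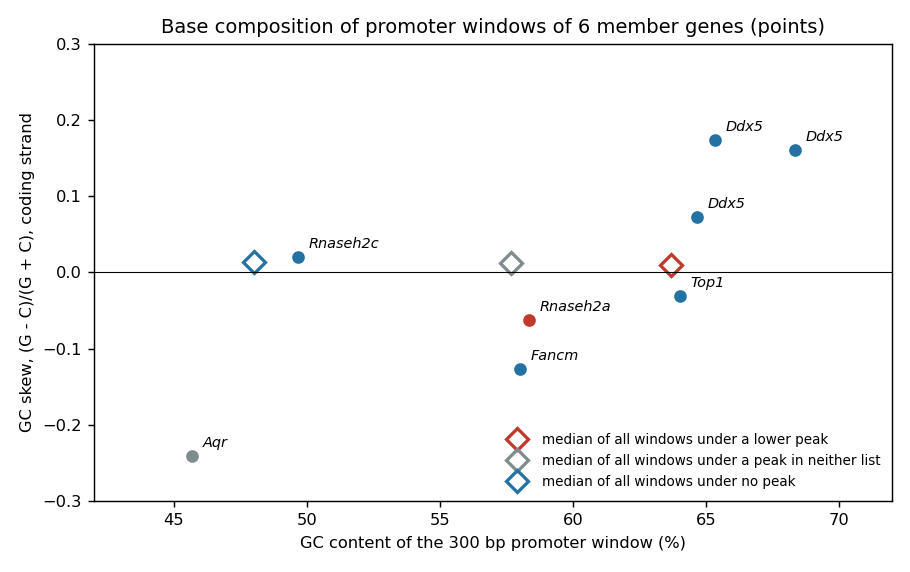
GC skew against GC content (%) of the 300-base promoter windows of 6 genes, coloured by the H2A.Z peak they overlap, with the medians of all windows of each class as open diamonds. The Ddx5 windows lie highest, at 0.072 to 0.173, and the Aqr window lowest, at -0.241.

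Over all windows, median GC content was 63.7% for the 3807 under a lower peak, 57.7% for the 10076 under a peak in neither list and 48.0% for the 18963 under no peak. Median GC skew was close to 0 in these 3 classes, at 0.010, 0.012 and 0.014. The 5 windows under a higher peak, none of them of a member, had a median GC content of 43.3% and a median skew of 0.187. The Rnaseh2a window, the only one of the 8 under a lower peak, was thus less GC-rich than the median of its class. The 6 windows under no peak were all more GC-rich than the median of their class. Of these, 3 are of Ddx5, and the others are of Top1, Fancm and Rnaseh2c. Rnaseh2c, at 49.7%, was close to that median. The Ddx5 windows at 106788858 to 106789157 and 106789136 to 106789435 overlap. The Fancm window lies inside the gene, 1082 base pairs from the lower peak at the gene end. The Aqr window, at 45.7%, was less GC-rich than the 57.7% of its own class.

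Among the nucleases, Rnaseh1 encodes the enzyme whose HA-tagged form doxycycline is meant to induce. The gene lies at chromosome 12, 28649601 to 28659592, and its peak of 705 base pairs (28649134 to 28649838) was centred 115 base pairs outside its lower-coordinate end. This peak was narrower than the median of the set, 977 base pairs, and was in neither list. A lower peak of 628 base pairs lay 16.0 kb beyond the other end of the gene, and the authors' deposited table places it in intron 1 of 3 of Adi1, 405 base pairs from that gene's TSS. H2A.Z at this locus does not measure induction of the HA-tagged form, whose place in the genome the labels do not give.

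RNase H2 is a complex of 3 subunits that also removes single ribonucleotides built into DNA. Its subunit genes differed in their H2A.Z peaks. Rnaseh2a (chromosome 8, 84956610 to 84969598) had a lower peak of 784 base pairs at 84965376 to 84966159. The authors' deposited table places it in intron 1 of 7 of 1 transcript and 309 base pairs from the TSS of another. A wider peak of 1162 base pairs at the upper end of the gene (84968932 to 84970093), centred 85.5 base pairs inside it, was in neither list. That peak is also within 1 kb of an end of Prdx2, a peroxiredoxin gene that lies 23 base pairs from Rnaseh2a. The peaks of Rnaseh2a thus differed by position, with the peak at the internal start lower and the peak at the gene end in neither list.

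Rnaseh2b (chromosome 14, 62332068 to 62372996) had peaks of 642 and 543 base pairs inside the gene, centred 2.25 and 18.5 kb from its lower-coordinate end. A peak of the minimum width, 501 base pairs, was centred 3.33 kb outside that end. These 3 were in neither list, and the lower peak of 630 base pairs (62320135 to 62320764) lay further out. The authors' deposited table annotates it as intergenic at −11619 base pairs from the TSS of Rnaseh2b. The next protein-coding gene, Dleu7, lay 27.2 kb from it. Rnaseh2c (chromosome 19, 5601873 to 5602959) spans 1087 base pairs, and its nearest peak was 6.98 kb away. That peak was 761 base pairs wide and in neither list. Kat5, which encodes the acetyltransferase of the TIP60 complex that exchanges H2A.Z, lies 54 base pairs from Rnaseh2c. The nearest lower peak, 6399 base pairs wide, was 28.7 kb away and was assigned to Ap5b1.

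Among the helicases, Fancm and Ddx23 had their only peak within 10 kb of the gene at an end, and it was lower. Fancm (chromosome 12, 65074110 to 65131842) had a lower peak of 767 base pairs at 65073504 to 65074270, centred 223 base pairs outside its lower-coordinate end. The same peak covers the end of Fkbp3, a peptidyl-prolyl isomerase gene that lies 171 base pairs from Fancm. The authors' deposited table assigns it to Fkbp3, as a promoter peak 51 base pairs from that TSS. The start that the promoter table lists for Fancm lies inside the gene, and its window was 1082 base pairs from the peak. Whether the lower H2A.Z belongs to the promoter of Fancm, of Fkbp3 or of both was not tested. Ddx23 (chromosome 15, 98645379 to 98662928) had a lower peak of 763 base pairs at 98662376 to 98663138, which spans the upper end of the gene, with its centre 171 base pairs inside. The authors' deposited table places it in intron 1 of 16, in a CpG island, 132 base pairs from the TSS. CpG islands were the detailed annotation of 719 of the 9077 lower peaks (7.92%). A peak of 12599 base pairs at the neighbouring Cacnb3, wider than 99.9% of the set, was in neither list.

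Aqr and Ddx5 had no lower peak near. The peak at Aqr (chromosome 2, 114101161 to 114175339) was 4132 base pairs wide, wider than 94.7% of the set, and reached over the end of the gene where the start is listed (114174551 to 114178682). Its centre lay 1278 base pairs from that end, so it falls just outside the 1 kb window and counts where overlap or a window of 3 or 5 kb is used. The nearest lower peak was 305 kb from Aqr, further than at 81.1% of protein-coding genes. Ddx5 (chromosome 11, 106780355 to 106789185) had no peak within 42.2 kb, a longer distance than at 89.1% of protein-coding genes, and no lower peak within 452 kb. Of protein-coding genes, 13.3% had no peak within 30 kb. Ddx5 overlaps Cep95 by 546 base pairs, and the shared region had no peak either.

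Top1 (chromosome 2, 160645897 to 160722764) had no peak in the gene or within 7.21 kb. The nearest peak, of 1963 base pairs and in neither list, was centred 8.19 kb beyond its upper end and within 1 kb of an end of Plcg1, a phospholipase gene. The lower peak that the authors' deposited table assigns to Top1 is 1119 base pairs wide (160536931 to 160538049) and intergenic, at −108 kb from the TSS. Assignment by nearest TSS alone therefore gives Top1 a lower peak that lies far from it. Another lower peak, not assigned to Top1, lay slightly nearer to the gene, at 102 kb.

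**Figure D3:**
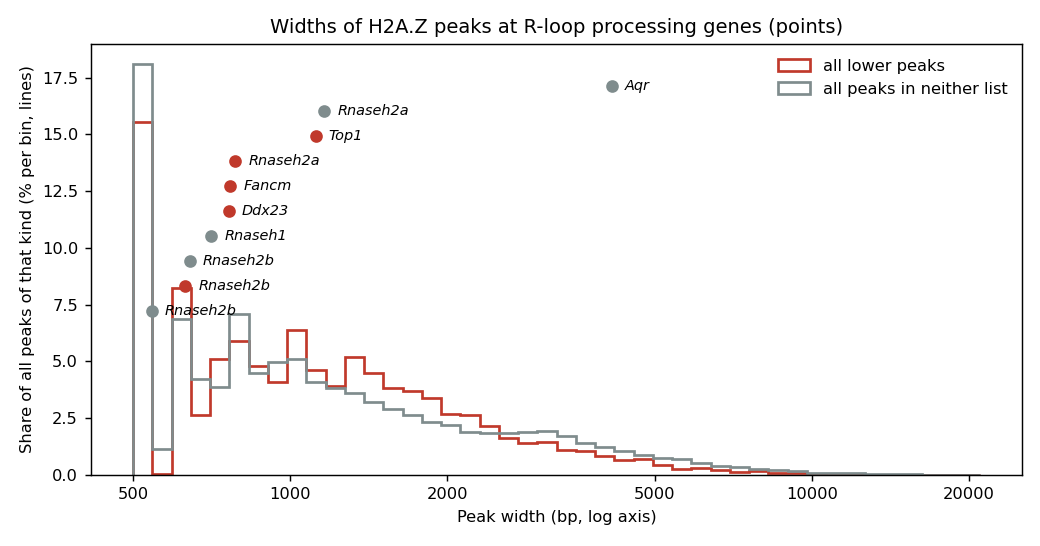
Widths (bp, log axis) of the peaks that overlap a member gene and of the distal lower peaks assigned to Rnaseh2b and Top1 (points, whose height has no meaning), over the widths of all peaks in the lower list and in neither list (lines, % of peaks per bin). The 5 red points lie between 630 and 1119 base pairs, and Aqr lies apart at 4132.

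The lower peaks of the 5 genes were narrow to average in width. They measured 630 base pairs at Rnaseh2b, 763 at Ddx23, 767 at Fancm, 784 at Rnaseh2a and 1119 at Top1, against a median of 1034 over all lower peaks and 977 over the whole set. Only the distal peak of Top1 was wider than these medians. The median of lower peaks at the ends of protein-coding genes was 1282, and that of end peaks in neither list was 1288. The lower end peaks of Fancm and Ddx23 were narrower than both, as was the end peak of Rnaseh1, at 705.

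Many of the 9 genes stand close to another gene. A protein-coding neighbour within 1 kb, or overlapping, was found for 6 of them, all but Rnaseh1, Aqr and Top1, against 31.7% of protein-coding genes. Rnaseh2a also has Rtbdn 3 base pairs away, Rnaseh2b overlaps Gucy1b2 by 62 base pairs, Ddx23 lies 842 from Cacnb3 and Ddx5 lies 817 from Polg2. Of the 4 peaks at gene ends of the 9, those at Rnaseh2a and Fancm were within 1 kb of the end of a second protein-coding gene, as were 10.7% of the 10312 peaks at ends of protein-coding genes.

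A wider list of 97 genes of R-loop biology was compiled, which includes the 9. In it, 57 genes had a peak at an end (58.8%, against 49.5% of protein-coding genes). Of these 57, 9 (15.8%) had a lower one, against the 31.5% of protein-coding genes given above. By the authors' assignment 17 of the 97 had a lower peak (17.5%, against 26.8%). Without the 9 members these counts were 7 of 53 (13.2%) and 13 of 88 (14.8%). The list was written with earlier results of these data known, so its counts describe these genes and are no test.

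**Figure D4:**
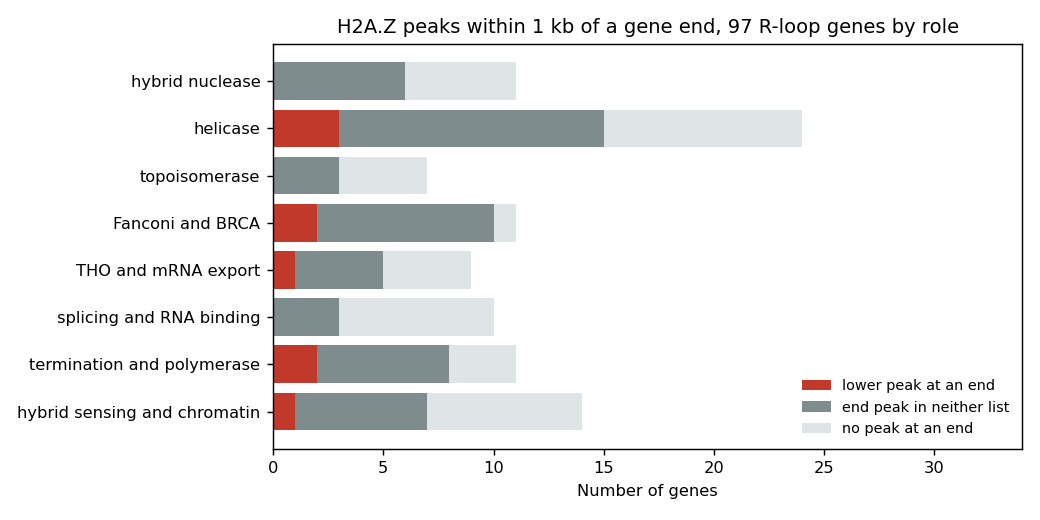
Number of genes in each role of the list of 97, split into those with a lower peak within 1 kb of an end, those with an end peak in neither list and those with none. Of genes with an end peak, those with a lower one were 3 of 15 helicases, 0 of 6 hybrid nucleases, 0 of 3 topoisomerases and 0 of 3 splicing genes. They were 2 of 10 in Fanconi and BRCA, 2 of 8 in termination and polymerase, 1 of 5 in THO and mRNA export, and 1 of 7 in hybrid sensing and chromatin. Fancm is counted among the helicases. Rnaseh2a, a hybrid nuclease, has a lower peak at an internal start, 3.83 kb from the gene end, which is not counted. Among protein-coding genes the share was 31.5%, and the groups are too small to read against it.

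Outside the 9, 7 genes of the list had a lower end peak. Faap24 encodes the partner that binds FANCM, and its lower promoter peak (chromosome 7, 35396663 to 35397163) was 501 base pairs wide and centred 146 base pairs from the gene end. Fanci encodes the monoubiquitinated partner of FANCD2, and its lower peak (chromosome 7, 79391726 to 79392788) was centred 55 base pairs from the end. Both are among 10 genes of the Fanconi and BRCA group with an end peak, and the other 8 had none that was lower. Fancm, of the same pathway and with a lower end peak, is counted among the helicases. Ctr9, of the PAF1 elongation complex, and Supt6, a histone chaperone of elongating polymerase, had lower end peaks of 1159 and 1071 base pairs, among 8 genes of their group with an end peak. Upf1, a helicase of nonsense-mediated decay, had one of 626 base pairs, Pcid2, of the TREX-2 export complex, one of 1014, and Samhd1, a dNTP hydrolase, one of 1351. The lower peak at Supt6 (chromosome 11, 78245359 to 78246429) was not assigned to that gene by the authors, as at Fancm.

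Further lower peaks were assigned by the authors without being at a gene end. The deposited table gives Thoc7, of the THO complex, a lower peak in a CpG island of intron 1, 412 base pairs from the TSS, and a second 27.6 kb away in an RLTR1B-int element. Those of Fancl, a Fanconi ubiquitin ligase, and Ddx18, a DEAD-box helicase, were in L1Md_T elements at 80.5 and −170 kb. Those of Rbbp8, which encodes the end-resection factor CtIP, and Arid1a, a BAF remodelling subunit, were intergenic at −281 and −18.1 kb. Adar, an RNA editing enzyme of double-stranded RNA, had lower peaks at −72.5 and −26.1 kb. Tdrd3, which encodes the scaffold of topoisomerase III beta, had lower peaks at −69.4 and 395 kb and a higher one at 359 kb. That was the only higher peak assigned to any of the 97 genes. None of the 10 splicing genes of the list had a lower peak by either assignment, but only 3 of them had an end peak, too few to read against the 31.5% of protein-coding genes.

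**Figure D5:**
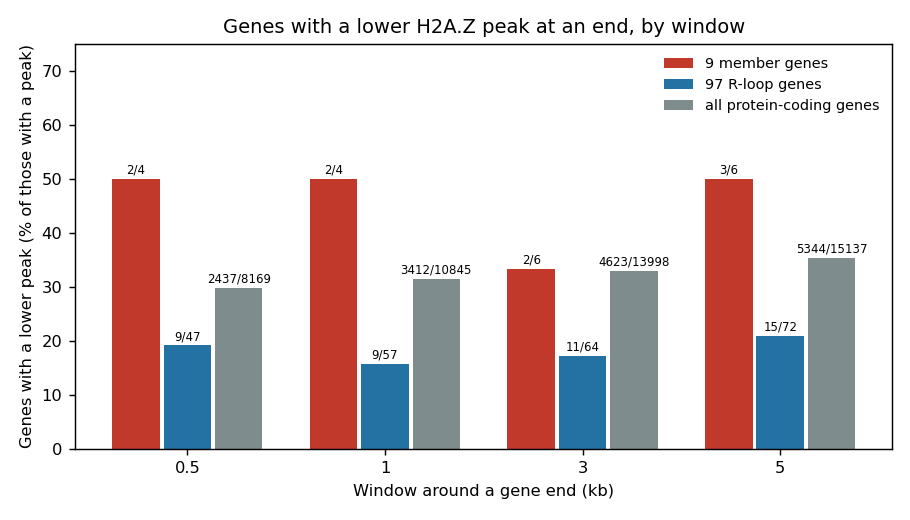
Share of genes with a lower peak (% of those with any peak within the window) for the 9 member genes, the list of 97 and all protein-coding genes, at windows of 0.5, 1, 3 and 5 kb around a gene end; bars carry the counts. The list of 97 runs from 15.8 to 20.8% and all protein-coding genes from 29.8 to 35.3%.

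With a 5 kb window Rnaseh2a joined Fancm and Ddx23, since its lower peak was centred 3.83 kb from the gene end, and 3 of 6 genes with a peak then had a lower one. With a 3 kb window it was 2 of 6, as Aqr and Rnaseh2b entered with peaks in neither list at 1.28 and 2.25 kb. At 1 kb the peaks of Rnaseh2a, Rnaseh1, Ddx23 and Fancm, centred 85.5, 115, 171 and 223 base pairs from an end, were inside.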

How the data were processed

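CUT&Tag of H2A.Z was analysed in 4 doxycycline and 4 control libraries, grouped by their titles. The tools named in the submitters' processing notes are deepTools, HOMER, Picard, Bowtie2 and Trimmomatic, and the build is GRCm38. Per the file headers, the authors annotated the lower and higher peaks with HOMER annotatePeaks against mm10. Not given in the sources used here were the peak caller, the test of change, its threshold and any pooling. The authors deposited positions, distances to the TSS and a peak score that is 0 in every row and was not used. Starts are printed counting from 1.

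Each lower and higher peak matched 1 peak of the set in chromosome, start and end. Genes came from RefSeq GRCm38.p6 and were matched by symbol, all 9 and all 97 of them. A peak is at a gene end if its centre lies within 1 kb of the start or end of the gene record, since strand is not in that table. Every member is named, and of the list of 97 every gene with a lower or higher peak by either assignment. No genes were named for a likeness of pattern, since the files hold no value per library. The members and lists were chosen with earlier results of these data known, so no test was made. The assignment was tested on simulated data. Protein sequence features, which were also planned, were not analysed here. Python 3.11.15, pandas 2.3.3, numpy 2.4.6 and matplotlib 3.10.9 were used. Alternatives were the window, overlap in place of the centre, the width of gene flanks, leaving out peaks of minimum width, the authors' assignment and the genes of the background.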

Additional observations from a re-analysis of the deposited data

How the results depend on the processing

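No value per library was available, so depth, replicate error and any dependence on 1 library are unknown here. No paired analysis was possible because the files hold no values per replicate. The count of 2 member genes with a lower end peak stayed between 2 and 3 with windows of 500 base pairs, 3 kb and 5 kb, with overlap, and without peaks of the minimum width, and became 4 with the authors' assignment, which adds Rnaseh2a, Rnaseh2b and Top1 and drops Fancm. The 3 of 7 peaks in or within 1 kb of the members that were lower became 2 of 5 in the gene body alone, 3 of 8 with overlap, and 3 of 7 without minimum-width peaks. With flanks of 5 and 10 kb they became 3 of 10 and 3 of 13, so the share depends on the flank. The 9 genes of the list of 97 became 15 with a window of 5 kb and 17 with the authors' assignment, and ranged from 8 to 11 in the other settings. The share of genes of every type with an end peak that had a lower one was 27.1%, and 31.5% for protein-coding genes. Over all 49997 genes, with a peak or without, it was 8.92%.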
